A study of Rattus norvegicus with 4 samples.

Results

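Carbonic anhydrases were measured by 7 of the 1936 probes of a rat cDNA array, namely 1 probe of Car1 and 2 probes each of Car2, Car3 and Car4. Members were taken by name, as every probe whose symbol in the array's annotation was Car followed only by digits, which gave 4 of the 16 carbonic anhydrase genes in the RefSeq table of assembly GRCr8. The family itself was chosen by measured values, because Car3 was the lowest gene of the series and the probes of Car2 differed, so the ligation values of these genes are given as a description with no test. The gene numbers of all 7 probes (310218 for Car1, 54231 for Car2, 54232 for Car3 and 29242 for Car4) carry the same symbols in RefSeq. Car1 is also an older symbol of Cxadr, a different gene, and the gene number is that of the carbonic anhydrase.

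Carbonic anhydrases are zinc enzymes that convert carbon dioxide and water into bicarbonate and a proton and back. They serve acid-base balance, ion transport across epithelia and the supply of bicarbonate to carboxylating enzymes. Car2 is a fast cytosolic form found in red blood cells and in many epithelia, including that of the bile duct, where bicarbonate is secreted into bile. Car3 is a cytosolic form with little hydratase activity that is abundant in skeletal muscle, fat cells and the liver of male rats, where the pattern of growth hormone secretion sets its level. Car1 is best known from red blood cells and the colon, and Car4 is anchored on the outer face of the cell membrane.

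The arrays compared liver RNA of male Sprague-Dawley rats (250 to 300 g) at 12 h after ligation of the common bile duct, which blocks the flow of bile to the intestine, with RNA at 12 h after a sham operation that exposed the duct and left it open. Total RNA from the right lateral lobe of 3 rats per group was mixed before poly(A) RNA was purified, so no value belongs to 1 animal. Each of the 4 two-colour arrays carried both mixtures, with the ligation RNA in Cy5 on arrays 1 and 3 and in Cy3 on arrays 2 and 4. The labels do not say whether the arrays came from separate pools, so errors and p-values reflect spread between arrays and not between animals. The errors are also moderated, which means that each variance between arrays is drawn towards that of all probes or genes. That prior has 11.7 degrees of freedom for probes and 10.4 for genes, against 2 from the arrays. It is fitted anew when an array is left out. Calls and p-values from those fits are thus not on the same footing as those of all 4 arrays, least of all without array 2 or array 4. An error is therefore not a probe's own spread alone. The number of arrays limits the precision.

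The values are log ratios deposited by the authors, read as base 2 and as ligation over sham on every array. No source states that direction. It is likely because the labels put the ligation RNA in channel 2 of every array. The deposited medians were -1.26, 0.43, -0.96 and 0.26 on arrays 1 to 4. Pearson r across all probes was 0.93 and 0.94 between arrays of the same dye orientation, and -0.45, -0.36, -0.35 and -0.28 between arrays of opposite orientation. Each array was therefore also centred on its median, which subtracts -0.38 from every 4-array mean. The 288 spots that appear to be controls from their position were left out, which left 1648 probes and 958 named genes. The files hold ratios and no intensities, so the tissue could not be checked against the levels of its markers, signal over background is unknown, and levels of different genes cannot be compared. In whole liver, fewer cells of a type and less RNA per cell cannot be told apart.

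Car3 stood far below 0 on every array through both of its probes. The deposited log2 ratios of probe 1266 were -2.99, -2.92, -2.98 and -2.91 on arrays 1 to 4. Those of probe 1635 were -2.97, -2.74, -3.10 and -2.87. The 8 values lay close together whichever dye the ligation RNA carried, with an SD over arrays of 0.04 for probe 1266 and 0.15 for probe 1635. The median SD of the 1648 probes was 0.70, and 278 of them (16.9%) had an SD no larger than that of probe 1635. All 4 deposited values were below 0 for 513 of the 1648 probes (31.1%), so the sign alone is common in this table.

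After centring, the same Car3 values separated by dye. Probe 1266 was at -1.73 and -2.02 on the arrays with ligation RNA in Cy5, and at -3.35 and -3.17 on those with ligation RNA in Cy3. Probe 1635 was at -1.72 and -2.14, and at -3.17 and -3.14. Both probes thus remained below -1.7 on each array, and the arrays of opposite dye did not overlap. The 4-array means were -2.57 ± 0.08 (SE, 4 arrays) for probe 1266 and -2.54 ± 0.09 for probe 1635, or 5.93-fold and 5.82-fold lower in the ligated pool. Of 1648 probes these were the second and the third lowest, between a probe of the sterol hydroxylase Cyp8b1 at -3.04 ± 0.11 and an unnamed probe at -2.09 ± 0.10.

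**Figure D1:**
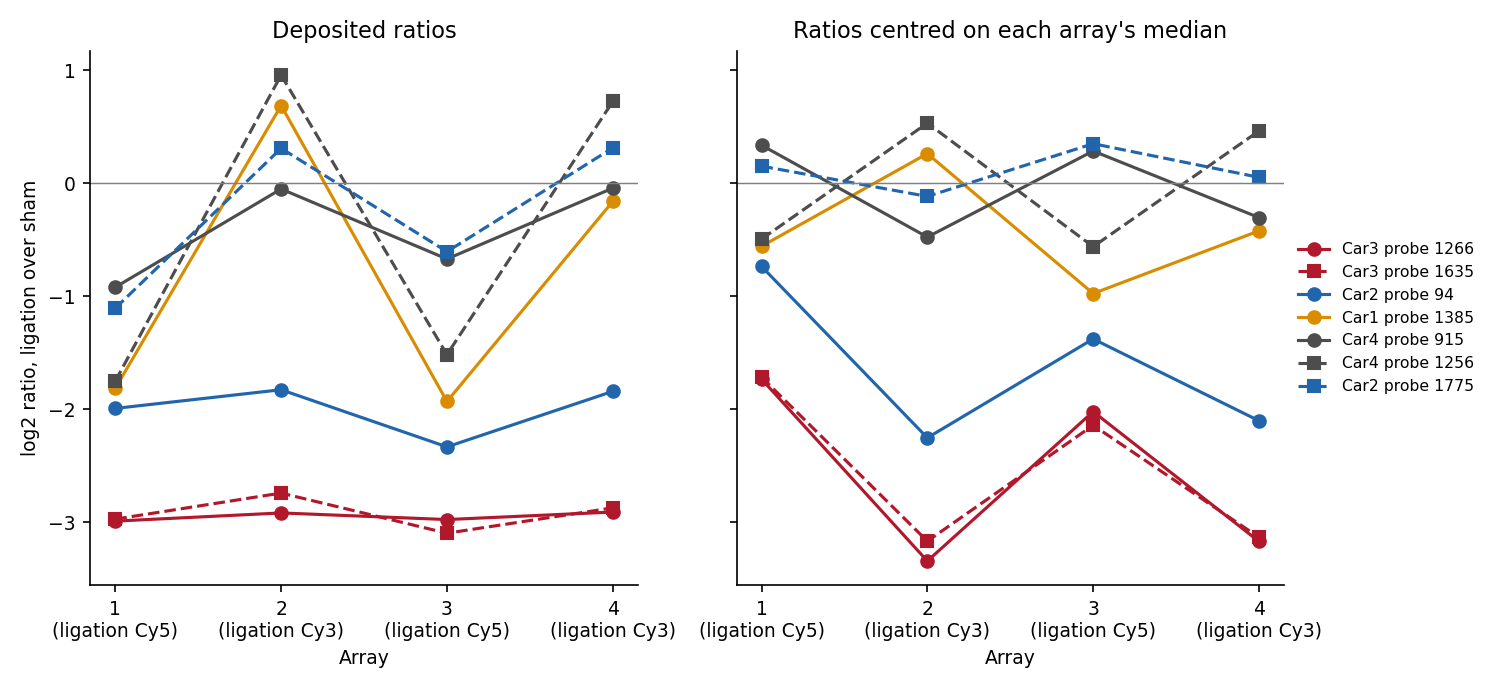
Log2 ratio of ligation over sham (vertical axis) of the 7 carbonic anhydrase probes on arrays 1 to 4 (horizontal axis), as deposited on the left and after centring on each array's median on the right. The Car3 probes stay between -3.10 and -2.74 as deposited, while centring moves them to between -2.14 and -1.72 with ligation RNA in Cy5 and to between -3.35 and -3.14 with it in Cy3.

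The zero point and the reading of the table set the size and the sign of the Car3 value. Without centring the means were -2.95 and -2.92. Read as Cy5 over Cy3, which turns the sign of arrays 2 and 4, the means were 0.69 and 0.61 with centring, and -0.03 and -0.11 without it. Leaving out 1 array at a time left probe 1266 between -2.64 and -2.50 and probe 1635 between -2.65 and -2.43.

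The probes of Car2 gave different values. The deposited ratios of probe 94 were -1.99, -1.83, -2.33 and -1.84 on arrays 1 to 4, and all 4 lay below those of probe 1775, at -1.11, 0.31, -0.61 and 0.31. After centring, probe 94 was at -0.74, -2.25, -1.38 and -2.10 with a mean of -1.62 ± 0.10 (SE, 4 arrays), a 3.07-fold lower value and the rank of 9 from the lowest of 1648. Probe 1775 was at 0.15, -0.12, 0.35 and 0.05 with a mean of 0.11 ± 0.08, at rank 1287. The centred values of the probes did not overlap. Averaging them gives -0.75 ± 0.08 for Car2, a value that neither probe showed.

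Among the 340 genes with 2 or more probes, the range between the highest and the lowest probe mean had a median of 0.13. That of Car2 was 1.73, and 1 gene (Cyp8b1, with probes at -3.04 and -0.09) had a wider one. The range of Car3 was 0.03 and that of Car4 0.02, narrower than in most of these genes, with 37 genes below Car3 and 32 below Car4. These places hold for the ligation over sham reading. Read as Cy5 over Cy3, the range of Car2 was 0.42, that of Car3 0.08 and that of Car4 0.86, against a median of 0.32, which puts Car2 near the middle of the genes and Car4 above most of them. The probes of Car3 were printed in blocks 11 and 14 of the slide, those of Car2 in blocks 1 and 15. Related family members share sequence, and a cDNA probe can bind transcripts other than its own. Probe sequences were not used here, so binding of probe 94 to Car3 transcript was not tested.

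**Figure D2:**
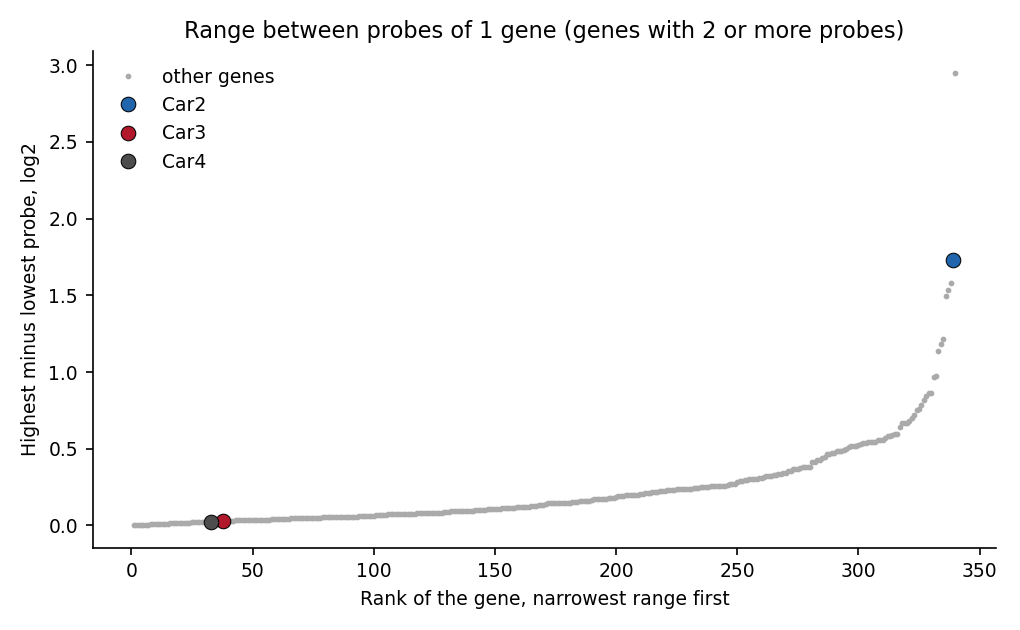
Highest minus lowest probe mean in log2 (vertical axis) of the 340 genes with 2 or more probes, each a point in order of that range (horizontal axis). As plotted, for ligation over sham, Car2 is the second widest at 1.73, and Car3 and Car4 lie near the narrow end at 0.03 and 0.02. Read as Cy5 over Cy3 the ranges are 0.42, 0.08 and 0.86 against a median of 0.32, so the places of Car2 and Car4 do not hold under that reading.

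Car1 had a single probe, 1385, with deposited ratios of -1.82, 0.69, -1.93 and -0.16. These values followed the dye, since both arrays with ligation RNA in Cy5 were near -1.9. Centred, they were -0.56, 0.26, -0.98 and -0.42, with 3 of 4 arrays below 0 and a mean of -0.42 ± 0.11 (SE, 4 arrays). The residual SD between arrays of the same dye was 0.40, the largest of the 7 probes. The mean was -0.59 without array 2 and -0.25 without array 4, the ends of the range when 1 array was left out.

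After centring, Car4 stayed near 0 in the mean, but its probes moved with the dye in opposite ways. As deposited, both probes were lower with ligation RNA in Cy5 than with it in Cy3. Those deposited means were -0.80 against -0.05 for probe 915, and -1.63 against 0.84 for probe 1256. Centred, probe 915 was at 0.34, -0.48, 0.28 and -0.30, and probe 1256 at -0.49, 0.53, -0.56 and 0.46. Each probe was thus above 0 in 1 dye orientation and below 0 in the other. The means were -0.04 ± 0.08 and -0.02 ± 0.08 (SE, 4 arrays), at ranks 684 and 800 of 1648. Without centring they were -0.42 and -0.40.

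In order from the lowest, the probes were 1266 and 1635 of Car3, 94 of Car2, 1385 of Car1, 915 and 1256 of Car4, and 1775 of Car2. The first neighbours differed by 0.03 with an SE of the difference of 0.12, and changed order between arrays. Each SE of a difference combines the SEs of both probes as if they were independent, although they were read on the same arrays. Car2 probe 94 lay above Car3 probe 1635 by 0.92 ± 0.13, by 0.76 to 1.03 on the single arrays. Car1 lay above Car2 probe 94 by 1.19 ± 0.15, but that gap ran from 0.18 on array 1 to 2.52 on array 2. Car1 and Car4 probe 915 differed by 0.38 ± 0.14 with the order turned on array 2. The last neighbours differed by 0.02 ± 0.11 and 0.12 ± 0.11, little more than the SE at most, and their order changed with the dye.

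**Figure D3:**
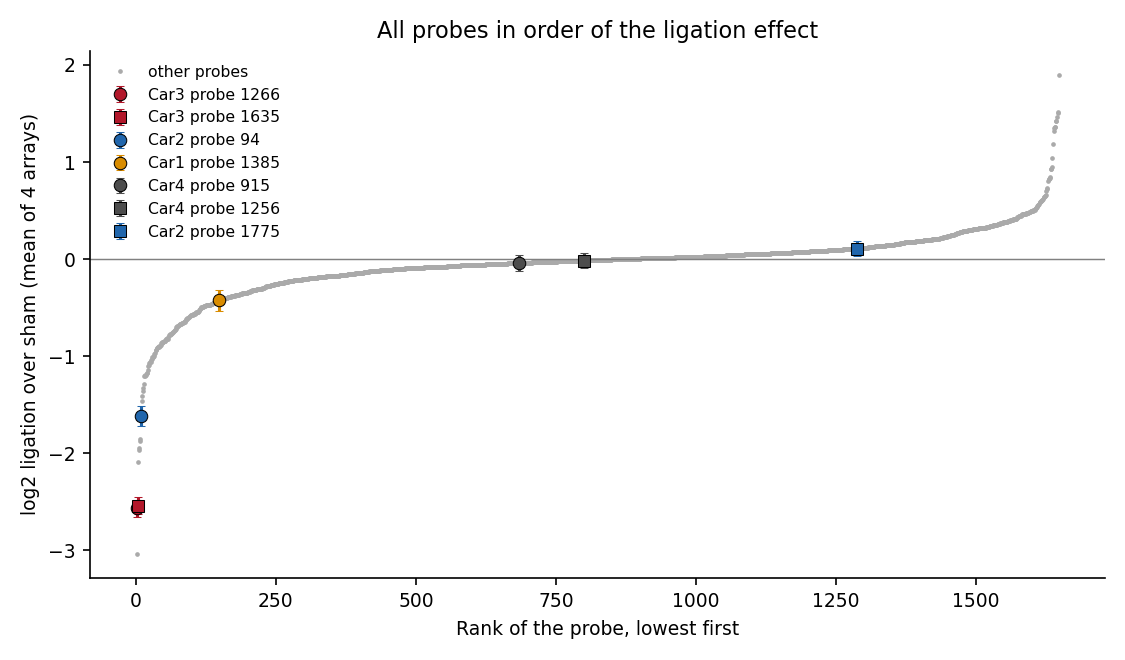
Mean log2 ligation over sham of 4 centred arrays (vertical axis) of all 1648 probes in rank order (horizontal axis), with the carbonic anhydrase probes coloured by gene and bars for the SE. The Car3 probes hold ranks 2 and 3 and Car2 probe 94 rank 9, while Car1 is at rank 148 and the other probes lie on the flat middle of the curve.

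The dye term, which is the part of a centred ratio that turns with the dyes, differed between members, and the spread of ligation effects differed along it. It was 0.69 and 0.61 for the Car3 probes and 0.56 for Car2 probe 94. It was 0.14 for Car2 probe 1775, -0.34 for Car1, and 0.35 and -0.51 for the Car4 probes. Over all 1648 probes it ran from -0.89 to 1.05. Centring subtracts -0.72 from every dye term. In the deposited ratios the term was -0.03 and -0.11 for the Car3 probes and -0.16 for Car2 probe 94. There it was -0.58 for Car2 probe 1775, -1.07 for Car1, and -0.37 and -1.24 for the Car4 probes. A high centred term is thus not a large dye difference in the deposited ratios. In the quartile of probes with the lowest dye term the SD of the ligation effect was 0.07, and none of 412 probes reached a size of 0.5. That share was 4.13% in the next quartile, 11.4% in the third and 23.5% in the quartile with the highest dye term, where the SD was 0.53.

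The members stood at different places in those quartiles. Both Car3 probes were in the highest one, where they were the 2 lowest of 412, and Car2 probe 94 was the third lowest of the third quartile. Car1 and Car2 probe 1775 were in the second quartile, at ranks 15 and 319 of 412. Car4 probe 1256 was in the lowest quartile, in which no probe lay far from 0, and Car4 probe 915 was in the third, at rank 192. The part of the dye term in the differences between members was not tested.

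**Figure D4:**
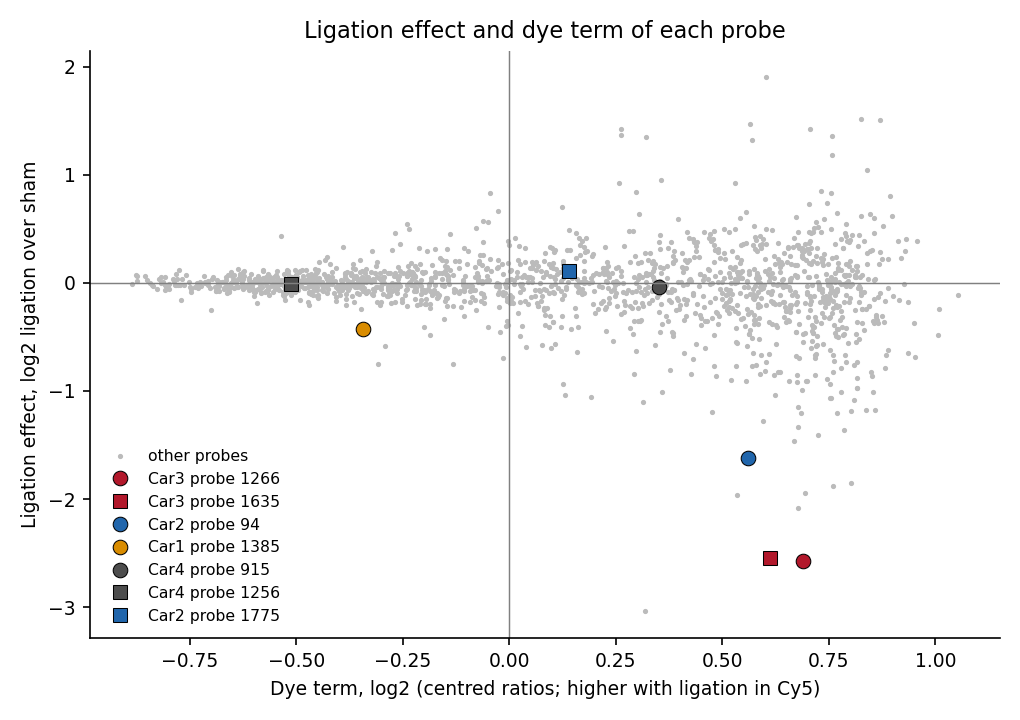
Ligation effect in log2 (vertical axis) against the dye term in log2 (horizontal axis) of 1648 probes on centred arrays, with the carbonic anhydrase probes marked. Centring subtracts -0.72 from every dye term, so 0 on that axis is not 0 in the deposited ratios. Ligation effects spread wider from left to right, from an SD of 0.07 in the lowest quartile of the dye term to 0.53 in the highest, and the Car3 probes lie at the lower right.

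By the distance between centred values over 4 arrays, the genes nearest to the Car3 mean were Acsl1 (distance 1.21), Cyp1a2 (1.41), Slc22a8 (2.18), Tspo (2.30) and Notch3 (2.45), against a median distance of 5.37 over 954 genes. Acsl1 activates long-chain fatty acids and was at -1.15, -2.53, -1.53 and -2.61 on the 4 arrays. Cyp1a2, a drug-metabolising cytochrome P450, was at -0.94, -2.78, -1.23 and -2.51. After centring, both were lower on arrays 2 and 4, as Car3 was, and neither reached Car3 on any array. As deposited, Car3 and Acsl1 were not lower on arrays 2 and 4, and Cyp1a2 was lower there by far less than after centring. For Car2 probe 94 the nearest were the organic anion transporter Slc22a8 (0.40), the mitochondrial cholesterol-binding protein Tspo (0.60) and the receptor Notch3 (0.66). For Car2 probe 1775 they were the Src-inhibiting kinase Csk (0.14), the oxygen-sensing prolyl hydroxylase Egln1 (0.15) and the liver 6-phosphofructo-2-kinase Pfkfb1 (0.17). Over 4 arrays the distance compares only the size of the ratio and how it followed the dyes.

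Car2, Car3 and Car1 follow one another directly among the protein-coding genes of GRCr8, with Car13 next. None of the 4 protein-coding genes listed on either side of that run was measured under its symbol, so the neighbourhood of Car3 on this array consisted of Car2 and Car1 alone.

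Few genes around bicarbonate were measured. Over all named genes, limma called 27.1% of 958 at Benjamini-Hochberg adjusted p under 0.05, 11.7% higher and 15.4% lower in the ligated pool, with a median effect of -0.01. Of 10 enzymes that use or release carbon dioxide or bicarbonate, 1 was measured, the phosphoenolpyruvate carboxykinase Pck1, at -0.22 ± 0.08 (adjusted p = 0.0709), which passed without array 2 (-0.31, adjusted p = 0.0345). Of 36 acid-base and anion transporters, 5 were measured, with 1 higher, 1 lower and 3 not past the test, and a median of -0.02. The sodium bicarbonate cotransporter Slc4a4 was at 0.32, 0.22, 0.56 and 0.12 on the 4 arrays, a mean of 0.31 ± 0.08 (adjusted p = 0.00772). After centring, all 4 arrays were above 0, but as deposited their sign followed the dye. Slc4a4 did not pass when array 2 was left out (0.28, adjusted p = 0.0574), and its mean was -0.07 without centring. The sulfate and anion exchanger Slc26a1 was at 0.39, -1.18, 0.08 and -1.25 after centring, a mean of -0.49 ± 0.08 (adjusted p = 0.000357). Its centred arrays lay on both sides of 0, but its deposited ratios were below 0 on every array, with a mean of -0.87. Read as Cy5 over Cy3 after centring, the mean was 0.72.

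Genes of growth hormone signalling and sex-dependent liver genes went both ways. Of 37 listed, 10 were measured, with 3 higher, 3 lower and 4 not past the test, and a median of -0.06. Igfals, the liver-made carrier subunit of circulating IGF complexes, was lower at -0.56 ± 0.07 (adjusted p = 7.51e-05). The hydroxyacid oxidase Hao2 was lower at -0.46 ± 0.08, with probes at -0.85 and -0.06. Stat5b, the transcription factor that carries the growth hormone signal in hepatocytes, was at -0.35 ± 0.08 (adjusted p = 0.007). It did not pass with array 3 left out (-0.27, adjusted p = 0.0736), nor with array 4 left out (-0.27, adjusted p = 0.0743). Read as Cy5 over Cy3, Igfals, Hao2 and Stat5b turned to 0.54, 0.53 and 0.29.

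The higher members of that list did not keep their sign on the deposited scale. The growth hormone receptor Ghr was at -0.14, 0.70, 0.42 and 0.29 on the arrays, a mean of 0.32 ± 0.10 (adjusted p = 0.0296). Leaving out array 2 gave 0.22 (adjusted p = 0.188) and leaving out array 3 gave 0.18 (adjusted p = 0.263). Ghr also did not pass with centring within print blocks (0.24, adjusted p = 0.0645) or quantile normalization (0.38, adjusted p = 0.052), nor with centring on the upper quartile of the dye term (0.39, adjusted p = 0.0978). Cyp2c12, the cytochrome P450 typical of female rat liver, was at 0.34 ± 0.07, with 4 probes from -0.21 to 1.32. The serine protease inhibitor Serpina3n was at 0.35 ± 0.08 with probes at 0.34 and 0.36. Without centring the means of Ghr, Cyp2c12 and Serpina3n were -0.064, -0.046 and -0.032. Igf1, the main growth hormone target of the liver, was at -0.18 ± 0.08 (adjusted p = 0.116). It was called lower without centring (-0.56, adjusted p = 0.000273) and higher when read as Cy5 over Cy3 (0.74, adjusted p = 5.77e-06).

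Of 16 genes typical of hepatocytes around the central vein, 7 were measured, with 5 lower, none higher and a median of -0.49, beside 15.4% lower and a median of -0.01 among all named genes. These genes were set out with earlier results of these data known, and Cyp1a2 and Cyp7a1 were among the results known. Cyp1a2 was at -1.86 ± 0.08 (adjusted p = 5.98e-09) and the bile acid enzyme Cyp7a1 at -0.90 ± 0.09, each lower on all 4 arrays. The sterol hydroxylase Cyp27a1 was at -0.66 ± 0.08, the glutamate transporter Slc1a2 at -0.49 ± 0.08 and Cyp2e1 at -0.37 ± 0.07, with 7 probes of Cyp2e1 from -1.36 to 0.14. After centring, Cyp27a1 was at 0.19, -1.43, -0.08 and -1.34 on the 4 arrays, while Slc1a2 and Cyp2e1 were below 0 on each. As deposited, Cyp27a1 and Cyp2e1 were below 0 on every array, with a mean of -1.04 for Cyp27a1, while Slc1a2 was above 0 on array 2. Read as Cy5 over Cy3, Cyp1a2, Cyp27a1 and Cyp2e1 changed sign, to 0.78, 0.72 and 0.11, and Cyp7a1 was at -0.00036. Of 16 genes typical of the portal side, 1 was measured, Pck1, so the zones could not be compared.

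**Figure D5:**
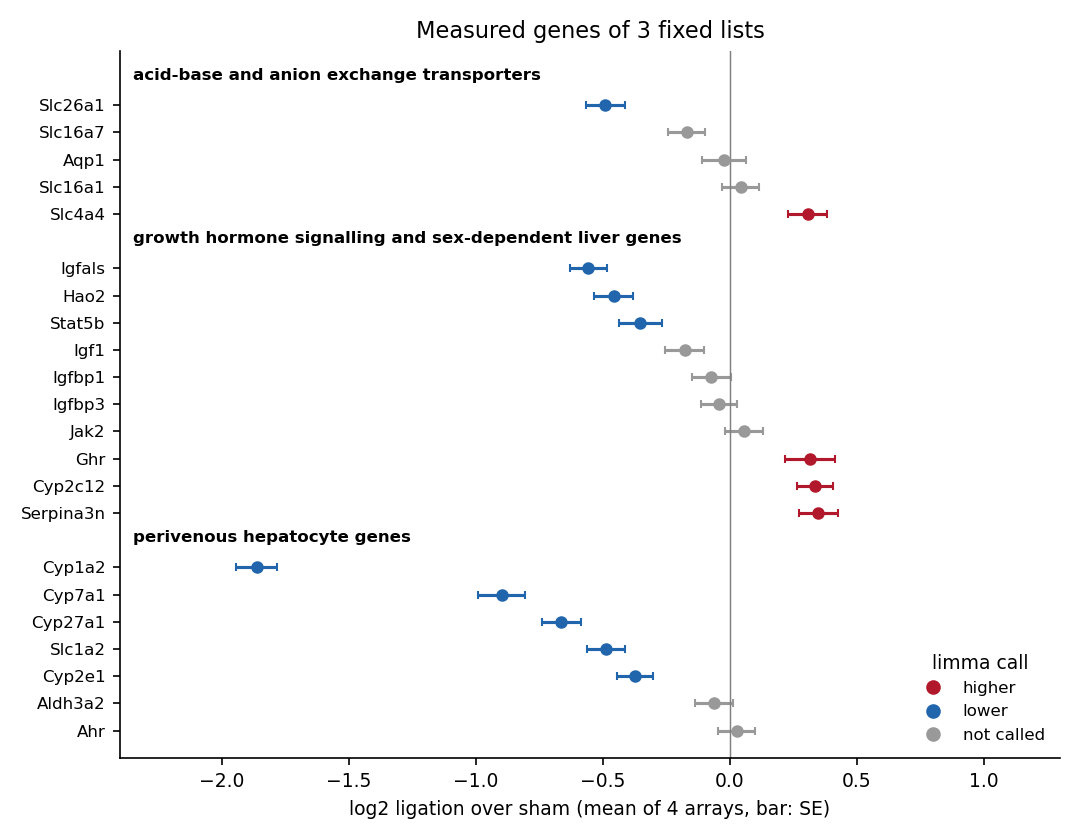
Mean log2 ligation over sham of 4 centred arrays with SE (horizontal axis) of the measured genes of 3 lists, coloured by the limma call at adjusted p under 0.05. The 5 called central-vein genes lie to the left of 0, and the growth hormone list holds 3 called genes on each side.

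Other cells that hold carbonic anhydrases could be followed only in part. Of 16 red blood cell markers none was measured, so the share of Car1 and Car2 transcript from blood was not tested. Of 12 bile duct markers, 2 were measured, Spp1 at 0.14 ± 0.07 and Aqp1 at -0.02 ± 0.09, and neither was called. Without centring both were called lower (-0.25 and -0.40), and read as Cy5 over Cy3 Spp1 was called lower (-0.41) and Aqp1 higher (0.59). Of 18 skeletal muscle markers, 2 were measured, Tnni2 at 0.05 ± 0.07 and Atp2a1 at -0.21 ± 0.08, and neither was called. Without centring both were called lower (-0.34 and -0.60), and read as Cy5 over Cy3 Tnni2 was called lower (-0.61). Atp2a1 also passed with quantile normalization (-0.22, adjusted p = 0.0429). Of 10 fat cell markers, 4 were measured, from Slc2a4 at -0.10 ± 0.07 to Fabp4 at 0.50 ± 0.09, and Fabp4 was called higher. It did not pass without centring (0.12, adjusted p = 0.396) and was at -0.24 when read as Cy5 over Cy3. Of 15 markers of Kupffer cells and leukocytes, 3 were measured, from Ccl5 at -0.33 ± 0.07 to Fcgr2b at -0.06 ± 0.07, with 2 called lower. Ccl5 did not pass without array 2 (-0.28, adjusted p = 0.0574) or with centring on the upper quartile of the dye term (-0.26, adjusted p = 0.0566), and was at 0.37 when read as Cy5 over Cy3. Of 15 hepatocyte markers, 5 were measured, from Apob at 0.10 ± 0.11 to Apoa1 at 0.38 ± 0.08. Of these, 4 were called higher and none lower, beside 11.7% higher among all named genes. The 4 called means, from 0.20 to 0.38, did not exceed the shift of centring, which subtracts -0.38 from every mean. Apoa1 was at -0.0039 without centring. After centring its sign followed the dye, at 1.39, -0.45, 0.97 and -0.39 on the 4 arrays, as did that of Apob. The part of these cell types in the Car values was not tested.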

How the data were processed

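The authors deposited 1 log2 ratio per probe and array for 4 arrays, with the base of the logarithm taken as 2. For scanning, background correction and normalization of the slides, methods are not stated in the labels. Probe symbols came from the array platform's annotation, checked by gene number against RefSeq (GRCr8). Arrays were centred on their medians. With R 4.3.3 and limma 3.58.1, a ligation term and a dye term per feature were fitted with moderated variances, once with probes separate (1648 probes, used for the carbonic anhydrases) and once with probes of 1 symbol averaged (1174 features, used for the gene lists). Benjamini-Hochberg adjustment ran over all features, with calls at adjusted p under 0.05. The code was tested on simulated data. The members, the lists and the tests were chosen with earlier results of these data known. Named genes are all carbonic anhydrase probes, the called members of each list, the extremes of each marker list, and the 5 genes nearest to Car3 and the 3 nearest to each Car2 probe. The alternatives were other centring, quantile normalization, the Cy5 over Cy3 reading, no dye term, a robust prior, control spots kept, probes kept separate and 1 array left out.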

Additional observations from a re-analysis of the deposited data

How the results depend on the processing

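Results for 7 probes, all named genes, 3 gene lists and 39 single genes were recomputed. Centring on the non-control probes, centring within print blocks, quantile normalization, a robust prior, keeping control spots and, for counts, keeping probes separate moved none of the 7 probe values by more than their SD between arrays of the same dye, and no count by more than 1.5 times. Among the single genes, Ghr lost its call with centring within print blocks and with quantile normalization. Without centring the Car3 probes were at -2.95 and -2.92, the Car2 probes at -2.00 and -0.27, and the Car4 probes at -0.42 and -0.40. The counts were then 11 higher and 791 lower of all named genes, 0 and 4 of the transporters, and 0 and 7 of the growth hormone list, and the called genes Slc4a4 (-0.074), Ghr (-0.064), Cyp2c12 (-0.046), Serpina3n (-0.032) and Apoa1 (-0.0039) changed sign. Fabp4 lost its call, 9 genes not called before also changed sign (8 of them then called lower, among them Spp1, Apob and Csk), and 18 in all gained a call, each lower. Read as Cy5 over Cy3, Car3 was at 0.69 and 0.61, Car2 probe 94 at 0.56, and Car4 at 0.35 and -0.51. The counts were then 433 higher and 314 lower of all named genes, 3 and 0 of the transporters, 8 and 0 of the growth hormone list, and 2 and 3 of the central-vein list. Among called genes the sign turned for Acsl1 (0.61), Cyp1a2 (0.78), Cyp27a1 (0.72), Cyp2e1 (0.11), Slc22a8 (0.67), Tspo (0.72), Notch3 (0.68), Hao2 (0.53), Igfals (0.54), Slc26a1 (0.72), Stat5b (0.29), Ccl5 (0.37), Ghr (-0.18) and Fabp4 (-0.24). It also turned for 9 genes not called before, 8 of them then called, among them Igf1 (0.74), Aqp1 (0.59), Spp1 (-0.41) and Tnni2 (-0.61). Slc4a4 (0.14) and Cyp7a1 lost their calls without a change of sign. That reading without centring, added after seeing the data, gave Car3 at -0.035 and -0.11, Car2 at -0.16 and -0.58, Car4 at -0.37 and -1.24, and Car1 at -1.07. With no dye term the probe means were the same by construction, but limma called 0 of the named genes higher and 0 lower (52 at unadjusted p under 0.05), and 0 members of each list, because the dye difference then counts as error. Centring on the probes with the highest dye terms (upper quartile), also added, gave 124 genes higher and 88 lower and Car4 probe 1256 at 0.058, and Ghr, Ccl5 and Stat5b lost their calls. Leaving out 1 array gave 74 to 117 genes higher and 103 to 151 lower, the fewest higher without array 4, and 0 or 1 transporter higher. The prior for the variances differs between those fits, so their counts are not strictly comparable. The central-vein list kept a count of 5 lower members without each array. Except as given here, the cause of these changes was not tested. Each ratio already pairs both pools on 1 array, and no pairing between arrays was used. Natural logarithms would make every log2 value larger.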

Other observations

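Probes next in number to those of Car3 lay below 0 in 3 of 4 cases, on the scale of centred ratios averaged over 4 arrays. On that scale at least 800 of 1648 probes lay below 0, so the sign alone is common. Beside probe 1266 were the organic anion transporter Slc22a8 at -1.47 ± 0.09 (SE) and the bile acid uptake carrier Slc10a1 at -0.82 ± 0.08. Beside probe 1635 were a probe shared by the sulfotransferases Sult2a2 and Sult2a1 at -1.03 ± 0.09 and the leukocyte antigen Cd52 at 0.05 ± 0.08. A size of 1 or more was reached by 43 of 1648 probes (2.61%). The probes next in number to Car2 probe 94 were at -0.08 ± 0.09 and 0.02 ± 0.08. These values were chosen after they were seen. Whether numbers that follow each other stand for neighbouring spots is not stated, and carry-over between spots was not tested.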
